A study of Mus musculus with 36 samples.

Results

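The let-7 family 3p arms are the strands cut from the 3′ side of the let-7 hairpins. They were followed in the mouse pre-B cell line B3 by small RNA sequencing. Every miRNA of the table named as a mouse let-7 with the suffix for the 3p arm was taken, which gave 6 of 469 miRNAs. They are mmu-let-7b-3p, mmu-let-7d-3p, mmu-let-7f-1-3p, mmu-let-7f-2-3p, mmu-let-7g-3p and mmu-let-7i-3p, and are written without the species prefix from here on. The Ikaros line had been transduced with a mouse stem cell virus vector for haemagglutinin-tagged wild type Ikaros, a transcription factor of lymphocytes, fused to ERt2, an estrogen receptor domain that holds the fusion protein out of the nucleus until its ligand is added (HA-Ikaros-ERt2-IRES-GFP), and the control line carried the same vector type with ERt2, IRES and GFP but no Ikaros. That ligand, 4-OHT (4-hydroxy-tamoxifen), is labelled at 0.5 uM in all samples, 0 h included, although the study's methods call the 0 h cells untreated. Each line was sampled at 6 times (0, 2, 6, 12, 18 and 24 h) in triplicate, as replicates 1, 2 and 4, for a total of 36 samples. Same-numbered samples of both lines at a time share a culture batch. By the study's methods, the cells of each line were thawed, expanded and then divided into flasks for the times. Same-numbered samples from 2 h to 24 h are thus flasks of the same batch and not independent cultures. Ikaros here was a retroviral transgene, and both lines were GFP-positive cells sorted after transduction and then expanded, with no cloning step described.

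A let-7 transcript folds into a hairpin that Drosha and then Dicer cut into a short duplex. The 5p strand is the usual guide, which is loaded into Argonaute and pairs with target mRNAs through its seed, and the 3p strand is the partner that is mostly discarded, although some is retained. The let-7 family is known for rising as cells differentiate and for its block by Lin28 in stem and progenitor cells. The guides of the family are nearly alike in sequence, and the hairpins let-7f-1 and let-7f-2 release one and the same let-7f-5p. The 3p arms differ between hairpins, so that those of let-7f-1 and let-7f-2 can be traced to their loci where the shared guide cannot. let-7d-5p, let-7g-5p and let-7i-5p each come from 1 hairpin.

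The mature 3p arms are shown because each one names the hairpin it was cut from. They are given 5′ to 3′ from RefSeq (GRCm38.p6), where 6 of 6 were matched, with the seed (bases 2 to 8) in capitals.
let-7b-3p: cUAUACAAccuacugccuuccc
let-7f-1-3p: cUAUACAAucuauugccuuccc
let-7d-3p: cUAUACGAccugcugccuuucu
let-7f-2-3p: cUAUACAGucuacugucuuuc
let-7i-3p: cUGCGCAAgcuacugccuugcu
let-7g-3p: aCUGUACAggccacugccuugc

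The 6 arms held 5 seeds. let-7b-3p and let-7f-1-3p shared UAUACAA, which in the table was also the seed of miR-98-3p, while the other 4 arms had a seed that no other miRNA of the table had. Counted from 1 at the 5′ end, let-7b-3p and let-7f-1-3p differed at 2 of 22 positions, C9U and C13U, with the base of let-7b-3p first. let-7f-1-3p and let-7f-2-3p differed at 4 of 21 positions, A8G, U13C, C16U and C20U, with the base of let-7f-1-3p first. let-7f-2-3p differed from let-7a-1-3p, which is no row of the table and is not analysed here, at 1 of 21 positions, G8A, so reads of these arms may be hard to keep apart and the values of let-7f-2-3p are uncertain to that extent.

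The let-7f hairpins show the contrast in full, with both arms in capitals.
Mirlet7f-1: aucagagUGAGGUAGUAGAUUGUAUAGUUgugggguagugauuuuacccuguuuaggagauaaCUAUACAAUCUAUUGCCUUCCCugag
Mirlet7f-2: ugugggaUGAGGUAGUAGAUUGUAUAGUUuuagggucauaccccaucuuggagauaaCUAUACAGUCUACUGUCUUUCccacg

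The hairpins lie at 5 places in the genome (GRCm38.p6, the same build as the mm10 of the labels). Mirlet7f-1 (chr13:48537829-48537917, minus strand) and Mirlet7d (chr13:48536012-48536114, minus strand) are 1714 bases apart, both in exonic sequence of the long noncoding RNA 6720427I07Rik, and Mirlet7a-1 lies 261 bases from Mirlet7f-1. Mirlet7b (chr15:85707319-85707403, plus strand) lies in an exon of the noncoding transcript Lncppara, 621 bases from Mirlet7c-2. Mirlet7f-2 (chrX:151912346-151912428, plus strand) lies in an intron of Huwe1, which encodes a ubiquitin ligase, 785 bases from Mir98. Mirlet7g (chr9:106178840-106178927, plus strand) lies in an intron of Wdr82, and Mirlet7i (chr10:122985640-122985724, minus strand) in an exon of the transcribed pseudogene D630033A02Rik, with no other hairpin within 10 kb of either.

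All values are log2 values normalised by the authors, which are not divided by length, and the arms compared are 21 or 22 bases long. The table held no counts, so the depth of each sample is unknown and precision rests on the 3 replicates. Of the markers listed for blood cells, miR-142-5p averaged 14.62 and miR-142-3p 13.21, and of those for lymphocytes miR-181a-5p averaged 18.15, miR-181b-5p 14.87, miR-155-5p 10.77 and miR-150-5p 3.90. The myeloid marker miR-223-3p averaged 2.11, whereas the erythroid markers miR-451a and miR-144-3p, the liver marker miR-122-5p and the muscle markers miR-1a-3p and miR-133a-3p were no rows of the table. Of the 2 neuron markers miR-124-3p was no row of the table and miR-9-5p averaged 13.30. The endothelial miR-126a-3p averaged 6.50, the epithelial miR-200c-3p 4.74 and the stromal miR-143-3p 1.13, and miR-205-5p and miR-145a-5p were no rows. The part of other cell types in the results was not tested. The libraries farthest from their replicates were Ikaros 12 h replicate 4 and control 12 h replicate 2, with root mean square deviations of 0.860 and 0.773 against a median of 0.454, and the 12 h results are given with and without them. The design drawing of the study puts the Ikaros samples in a first sequencing batch and every control sample collected from 2 h up to 18 h in a second, with some samples in both, and the authors corrected for the batch. By that drawing line and sequencing batch cannot be fully told apart at those times, and the part of this batch in the results was not tested. Because the samples are bulk RNA, fewer cells with an arm and less of it per cell cannot be told apart.

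let-7d-3p was by far the most abundant of the 6 arms. Over the 36 samples it ranged from 8.84 to 10.47 with a mean of 9.87, rank 71 of the 469 miRNAs. let-7i-3p followed with a mean of 6.24, let-7b-3p with 5.18, let-7g-3p with 4.31, let-7f-1-3p with 3.77 and let-7f-2-3p with 2.42, rank 313. The order held in 36 of 36 samples for let-7d-3p over let-7i-3p, let-7i-3p over let-7b-3p and let-7f-1-3p over let-7f-2-3p, in 34 of 36 for let-7b-3p over let-7g-3p, and in 29 of 36 for let-7g-3p over let-7f-1-3p. The last of these neighbours differed by 0.54 on average, with sample differences from -0.37 to 1.58, so their order did not hold in every sample. The smallest single gaps were 0.04 between let-7f-1-3p and let-7f-2-3p and 0.07 between let-7i-3p and let-7b-3p.

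The guides of the same hairpins lay far above their partners, except in let-7d. let-7f-5p averaged 14.42, let-7i-5p 13.87, let-7g-5p 12.89 and let-7d-5p 11.08. The 3p arm minus the 5p arm was -10.65 log2 units for let-7f-1, -11.998 for let-7f-2, -8.58 for let-7g and -7.63 for let-7i, but -1.21 for let-7d. Since let-7f-5p comes from both let-7f hairpins, the gaps of let-7f-1 and let-7f-2 are to a shared guide. let-7a-5p, which has the seed of let-7f-5p, is no row of the table. Whether its reads were counted under let-7f-5p is not known, and the gaps to let-7f-5p are uncertain to that extent. Among the 151 hairpin arm pairs of the table the median size of the gap was 3.49, and 2 pairs had a larger gap than let-7f-2, 5 a larger gap than let-7f-1 and 118 a larger gap than let-7d. let-7b-5p is no row of the table, so let-7b-3p has no arm pair here.

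Of the 6 arms let-7f-1-3p differed most between the lines at 24 h. Its line difference at 24 h beyond that at 0 h, given below, did not pass the test over all 36 samples (limma, adjusted p = 0.0880). At 24 h let-7f-1-3p was at 4.52, 4.59 and 4.13 in the 3 control samples (replicates 1, 2 and 4) and at 2.90, 2.78 and 2.65 in the 3 Ikaros samples. At 0 h it was at 3.95, 4.21 and 4.42 in the control line and at 3.61, 3.52 and 4.06 in the Ikaros line. The groups overlapped at 0 h, although in each of the 3 same-numbered pairs the Ikaros sample was already the lower, whereas at 24 h every Ikaros sample was more than 1 log2 unit below every control sample. The line difference (Ikaros minus control) at 24 h was -1.64 (SE 0.32, limma, adjusted p = 0.000132), a level 3.11 times lower in the Ikaros line.

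The intermediate times lay on the same side. At 6 h let-7f-1-3p was at 4.31, 4.12 and 4.15 in the control line and at 3.32, 3.13 and 2.64 in the Ikaros line. At 18 h it was at 4.08, 4.40 and 4.65 in the control line and at 3.18, 2.95 and 3.18 in the Ikaros line. The groups did not overlap at either time, which was not particular to this arm. It was also so at 6 h for let-7b-3p, let-7d-3p and let-7f-2-3p, and at 18 h for let-7b-3p and let-7d-3p. The share of all miRNAs without overlap is not given for these times, so no result about the arms is read from this. At 24 h all Ikaros samples lay below all control samples for 30.3% of all miRNAs. The line difference was -0.46 at 0 h and -0.52 at 2 h, neither of which passed the test (adjusted p = 0.569 and 0.341), and then -1.16 at 6 h (adjusted p = 0.0112), -0.999 at 12 h (0.0239), -1.27 at 18 h (0.00272) and -1.64 at 24 h. With one replicate number left out of all groups, the call at 24 h held in each case, whereas the adjusted p at 6 h was 0.159 without replicate 2 and 0.114 without replicate 4, and that at 18 h was 0.0992 without replicate 2.

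**Figure D1:**
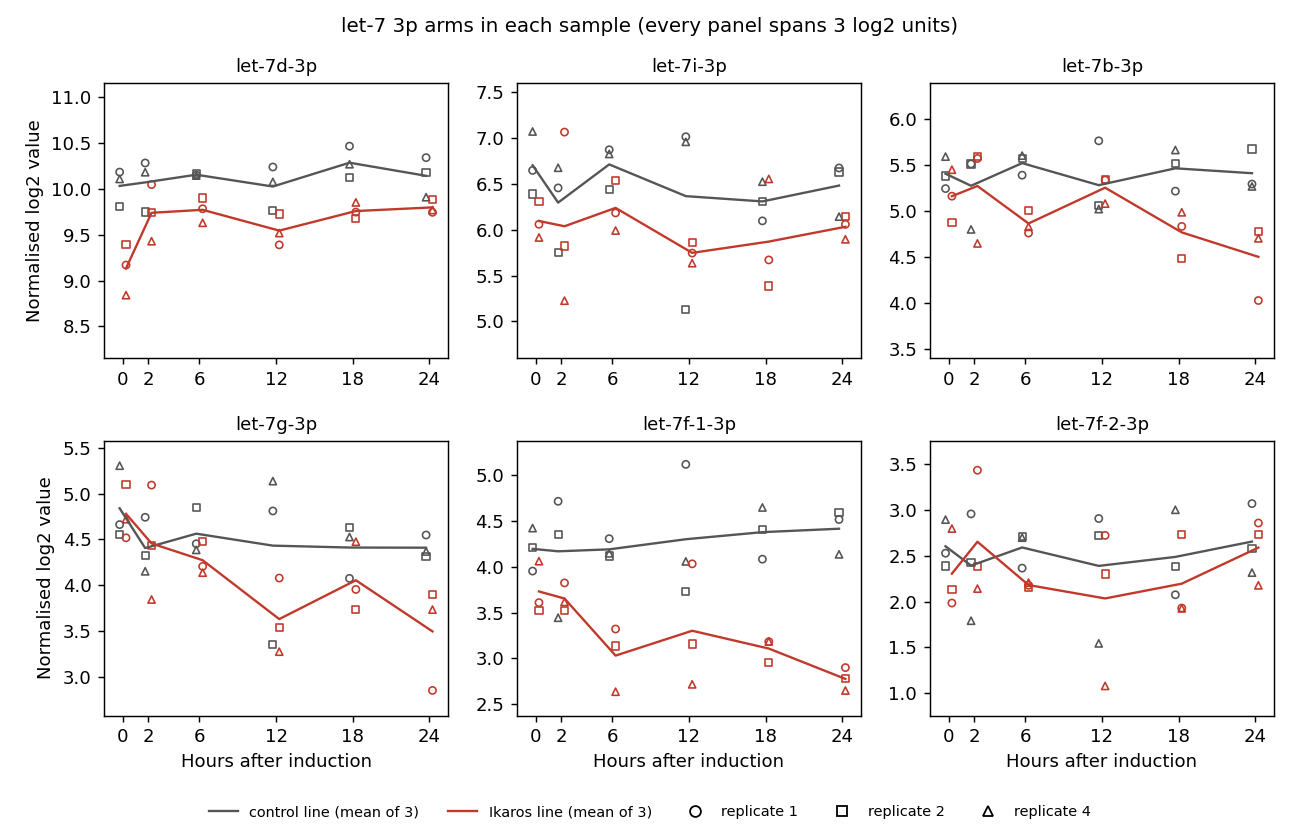
Normalised log2 value of each of the 6 let-7 3p arms (y axis) against hours (x axis), with 1 symbol per sample by replicate number, and lines through the means of 3 samples for the control line (grey) and the Ikaros line (red); every panel spans 3 log2 units at its own level. For let-7f-1-3p the Ikaros samples end between 2.65 and 2.90 and the control samples between 4.13 and 4.59. For let-7f-2-3p the samples of the lines overlap at 24 h.

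Of the 6 arms, 3 (let-7b-3p, let-7f-1-3p and let-7g-3p) were lower in the Ikaros line at 24 h past the test and none was higher, where 39.9% of the 469 miRNAs passed in either direction and 22.0% were lower. Their median line difference was -0.68, beside -0.07 over all miRNAs. At 24 h the 3 Ikaros samples lay below the 3 control samples without overlap for 5 arms, all but let-7f-2-3p, and this was so for 30.3% of all miRNAs. For let-7i-3p the nearest samples were level, Ikaros replicate 2 at 6.14175 and control replicate 4 at 6.1424. For let-7d-3p the same 2 samples were at 9.88 and 9.91. The median of all miRNAs per group was 3.79 in the Ikaros line at 24 h and 4.02 in the control line, and with the median of each sample subtracted the difference of let-7f-1-3p was -1.41.

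let-7b-3p, which has the seed of let-7f-1-3p but another locus, was the second arm to be lower at 24 h. It was at 5.30, 5.68 and 5.27 in the control line and at 4.02, 4.78 and 4.70 in the Ikaros line. All Ikaros samples were below all control samples, replicate 1 the most. The line difference was -0.91 (SE 0.26, adjusted p = 0.00533), and the adjusted p was 0.0898 without replicate 1 and 0.0674 without replicate 2. At 18 h the difference was -0.70 (adjusted p = 0.0377), and at 6 h it was -0.66, which did not pass (0.0845). At 0, 2 and 12 h it was -0.25, -0.00 and -0.03, with overlapping samples.

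let-7g-3p, whose hairpin lies in Wdr82, was at 4.55, 4.31 and 4.37 in the control line at 24 h and at 2.85, 3.90 and 3.73 in the Ikaros line. The groups did not overlap, but Ikaros replicate 1 lay well below the other samples. The line difference was -0.91 (SE 0.36, adjusted p = 0.0407), and the call was lost with a replicate block for culture batch (adjusted p = 0.0526), with the sample medians subtracted (-0.68, 0.108) and without replicate 1 (-0.52, 0.398). At 12 h the difference was -0.80 (adjusted p = 0.107). At 0, 2, 6 and 18 h it lay between -0.36 and 0.05 and did not pass the test.

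let-7d-3p, the abundant partner, differed between the lines in another order. At 0 h it was at 10.18, 9.81 and 10.11 in the control line and at 9.17, 9.39 and 8.84 in the Ikaros line. The groups were clearly apart, with a line difference of -0.90 (SE 0.17, adjusted p = 0.000440), and the adjusted p was 0.0679 without replicate 4. It was the only one of the 6 arms to pass at 0 h, where 8.53% of all miRNAs passed and 4.05% were lower. At 24 h it was at 10.34, 10.18 and 9.91 in the control line and at 9.74, 9.88 and 9.77 in the Ikaros line, where control replicate 4 and Ikaros replicate 2 were nearly level. The line difference was then -0.34 (adjusted p = 0.112). It was -0.33 at 2 h and -0.38 at 6 h, without passing, and -0.48 at 12 h (adjusted p = 0.0454) and -0.53 at 18 h (0.0206), where it passed.

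let-7i-3p and let-7f-2-3p did not pass the test at any time. For let-7i-3p the line difference lay between -0.62 and -0.26 over the 6 times, and at 24 h it was -0.45 with a 95% interval from -1.24 to 0.34 (adjusted p = 0.388). For let-7f-2-3p at 24 h the samples were at 3.07, 2.58 and 2.32 in the control line and at 2.86, 2.73 and 2.18 in the Ikaros line. These overlapped, and the line difference was -0.07 with a 95% interval from -0.87 to 0.74. The sign of this difference turned with the sample medians subtracted (0.17) and with quantile normalisation (0.06). At 6 h the Ikaros samples of let-7f-2-3p, from 2.16 to 2.21, lay below the control samples, from 2.37 to 2.71. The line difference at 6 h was -0.41 and did not pass (adjusted p = 0.601).

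Between 0 h and 24 h the number of arms that passed was as follows. At 2 h none did, with 11.3% of all miRNAs past the test. At 6 h 1 did (let-7f-1-3p), where 7.25% were lower and 15.1% passed in all. At 12 h 2 did (let-7d-3p and let-7f-1-3p), where 9.17% were lower and 21.7% passed. At 12 h no arm passed without Ikaros replicate 4, whereas without control replicate 2, which had the lowest let-7i-3p, let-7g-3p and let-7f-1-3p of its group, 4 did, let-7g-3p at -1.34 (adjusted p = 0.00471) and let-7i-3p at -1.24 (0.0151) among them. At 18 h 3 did (let-7b-3p, let-7d-3p and let-7f-1-3p), where 16.8% were lower and 29.9% passed, and with the sample medians subtracted let-7f-1-3p alone did.

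**Figure D2:**
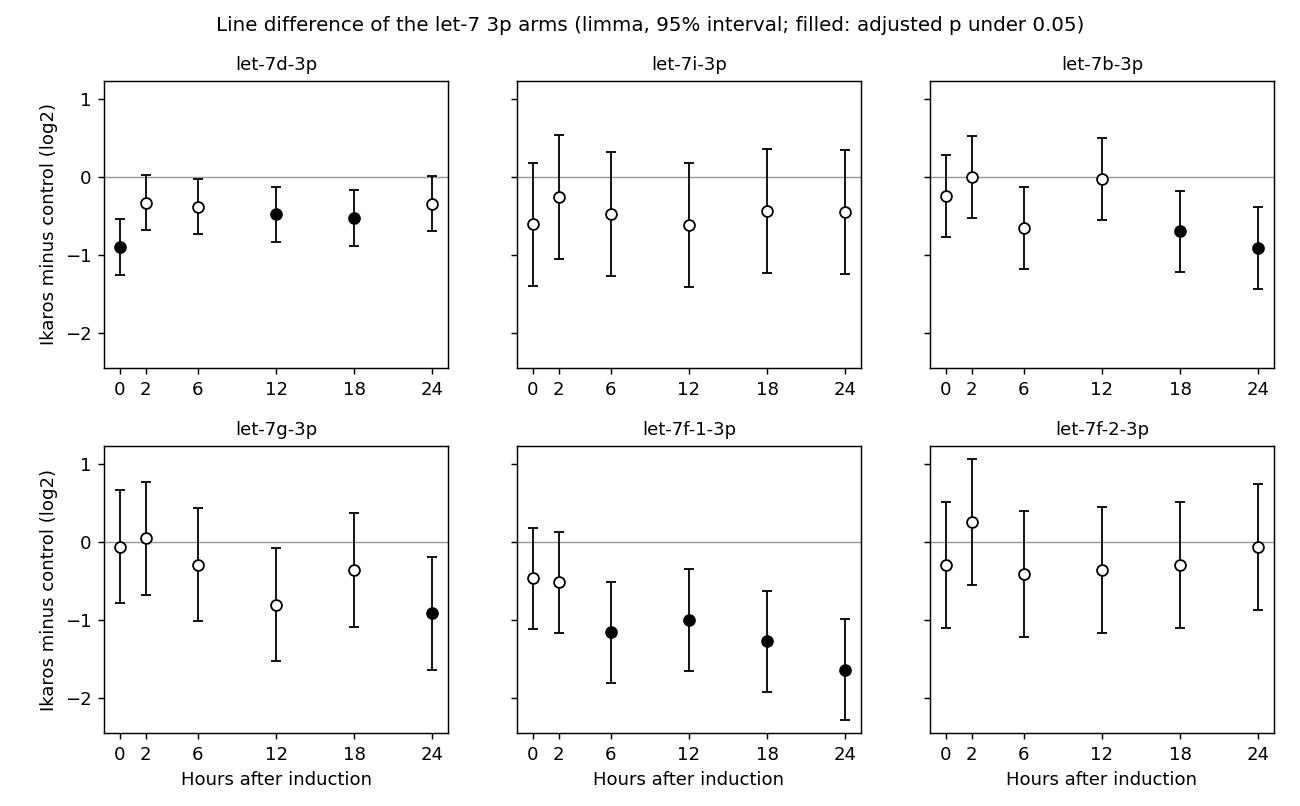
Line difference (Ikaros minus control, log2, y axis) of each let-7 3p arm against hours (x axis), with points for the limma estimate, bars for its 95% interval and filled points for an adjusted p under 0.05. let-7f-1-3p is filled from 6 h on and reaches -1.64, let-7d-3p is filled at 0, 12 and 18 h, and let-7i-3p and let-7f-2-3p are open throughout.

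Within the Ikaros line, 4 arms changed from 0 h to 24 h, where 30.7% of all miRNAs did. let-7g-3p fell by 1.28 on the log2 scale (adjusted p = 0.00662), let-7f-1-3p by 0.95 (0.0221) and let-7b-3p by 0.66 (0.0484), and 16.4% of all miRNAs fell. let-7d-3p rose by 0.67 (adjusted p = 0.00440), as did 14.3% of all miRNAs. Against 0 h, time and culture batch cannot be told apart, since the 0 h samples are of batches 4, 5 and 6 and all others of batches 1, 2 and 3. The call of let-7b-3p was lost under either rescaling (adjusted p = 0.147 by median and 0.137 by quantile) and with only the compared groups fitted (0.0959). With one replicate number left out, 1 or 2 of the 4 calls remained, with let-7b-3p at -0.42 without replicate 1.

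Against 2 h, which shares the culture batches of 24 h, 3 arms fell in the Ikaros line, where 28.6% of all miRNAs passed and 18.8% fell. let-7g-3p fell by 0.96 (adjusted p = 0.0419, and 0.0520 with the replicate block), let-7f-1-3p by 0.88 (0.0375) and let-7b-3p by 0.77 (0.0244). let-7d-3p was higher at 24 h by 0.06 (adjusted p = 0.848), and its 2 h samples, at 10.05, 9.74 and 9.43, were already above the 0 h samples. No arm passed under either rescaling, by sample median or by quantile, where the median change of all miRNAs was -0.11 before rescaling, and none passed without replicate 1 or without replicate 2. Without replicate 1 the change was -0.32 for let-7g-3p (adjusted p = 0.653) and -0.38 for let-7b-3p (0.444).

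In the control line the 6 arms changed by -0.43 to 0.22 from 0 h to 24 h and by 0.00 to 0.26 from 2 h to 24 h. None passed, and 0.0% of all miRNAs passed in limma, with 16 and 33 of 469 at an unadjusted p under 0.05. let-7f-1-3p was higher by 0.22 and 0.25, with 95% intervals from -0.43 to 0.87 and from -0.40 to 0.90.

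Whether the lines had moved apart by 24 h was tested directly. The line difference of let-7f-1-3p at 24 h went beyond that at 0 h by -1.17 (SE 0.45), which did not pass the test over all 36 samples (adjusted p = 0.0880) and passed with the replicate block (0.0478) and with only the compared groups fitted (0.0230). Beyond 2 h it was -1.12 (adjusted p = 0.0892), and for let-7b-3p -0.91 (0.0892). None of the 6 arms passed at 24 h beyond 0 h, where 6.61% of all miRNAs were lower and 5.76% higher past the test. None passed beyond 2 h or for any change of the line difference over the 6 times either, where 14.3% and 13.0% of all miRNAs did.

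The hairpins of different loci were then compared with each other, as the difference of their log2 values in each sample. Each of the 15 pairs of arms was tested for its line difference at 24 h, with p adjusted over all 109746 pairs of miRNAs, of which 39.0% passed. Of the 15 pairs 3 passed, a smaller share than among all pairs. let-7f-1-3p was in each of the 3, so they are not independent of each other.

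The widest was between the let-7f hairpins, which share a guide. At 24 h let-7f-1-3p was above let-7f-2-3p by 1.45, 2.01 and 1.82 in the control line and by 0.04, 0.05 and 0.47 in the Ikaros line. At 0 h the gap was 1.42, 1.82 and 1.53 in the control line and 1.62, 1.39 and 1.26 in the Ikaros line. The gap thus had a like size in both lines at 0 h, in other culture batches, and was small in the Ikaros samples of 24 h. Its change over time was not tested. At 2 h it was already 0.39, 1.14 and 1.47 in the Ikaros line and 1.76, 1.92 and 1.65 in the control line. The Ikaros means were 0.85, 1.27 and 0.91 at 6, 12 and 18 h, and the control means 1.60, 1.91 and 1.89. The line difference of let-7f-1-3p was lower than that of let-7f-2-3p by -1.57 (95% interval -2.28 to -0.87, adjusted p = 0.000548), and this pair passed under every alternative run, with each replicate number left out included.

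The neighbours on chromosome 13 also differed, let-7d-3p and let-7f-1-3p, whose hairpins are 1714 bases apart on one strand. At 24 h let-7d-3p was above let-7f-1-3p by 5.83, 5.59 and 5.78 in the control line and by 6.85, 7.10 and 7.12 in the Ikaros line, with no overlap. The line difference of let-7d-3p was higher than that of let-7f-1-3p by 1.29 (95% interval 0.56 to 2.03, adjusted p = 0.00483), and without replicate 2 the adjusted p was 0.103. At 0 h the Ikaros samples, at 5.56, 5.87 and 4.78, overlapped the control samples, at 6.23, 5.60 and 5.69.

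let-7f-1-3p differed from let-7i-3p by -1.19 (95% interval -2.05 to -0.33, adjusted p = 0.0254, and 0.0859 without replicate 1 and 0.171 without replicate 2). The arms that share a seed, let-7b-3p and let-7f-1-3p, differed by 0.73 (95% interval 0.11 to 1.35), which did not pass (adjusted p = 0.0574) and passed with the replicate block (0.0396). let-7b-3p and let-7g-3p, whose line differences at 24 h were nearly equal, differed by 0.00 with a 95% interval from -0.68 to 0.68.

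**Figure D3:**
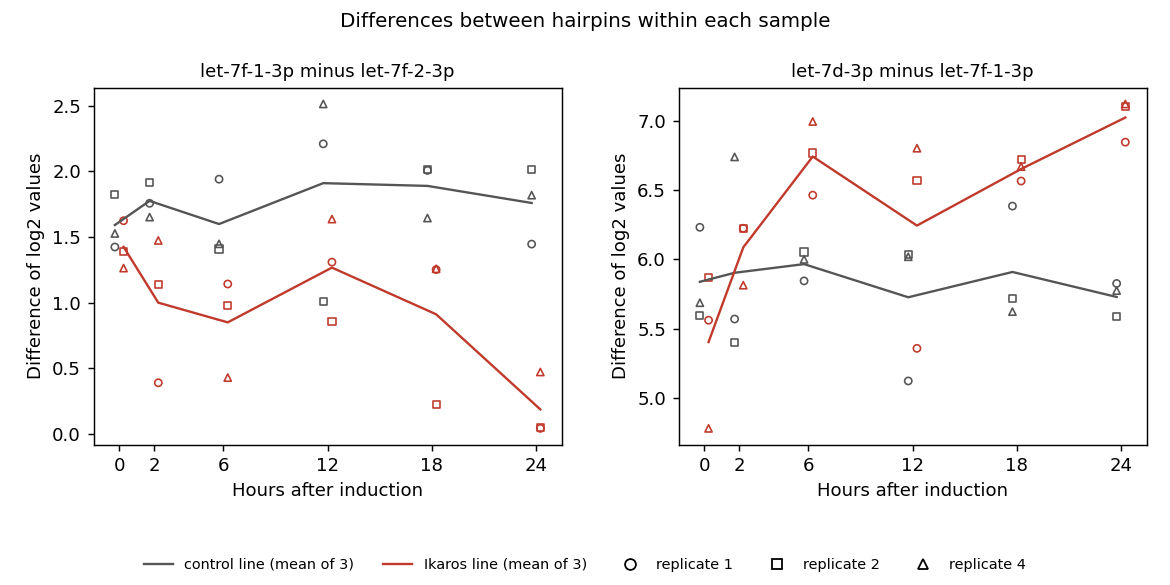
Difference of the log2 values of a pair of let-7 3p arms within each sample (y axis) against hours (x axis), with 1 symbol per sample by replicate number and lines through the means of 3 for the control line (grey) and the Ikaros line (red). At 24 h let-7f-1-3p lies 1.45 to 2.01 above let-7f-2-3p in the control line and 0.04 to 0.47 above it in the Ikaros line, and let-7d-3p minus let-7f-1-3p is 5.59 to 5.83 and 6.85 to 7.12.

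The gap between the arms of a hairpin was compared next, to ask whether a partner moved with its guide. For let-7f-1 and let-7f-2 this cannot be answered for the single hairpin, because let-7f-5p comes from both. For let-7f-1-3p minus let-7f-5p the control samples of 24 h were at -9.94, -10.02 and -10.45 and the Ikaros samples at -11.39, -11.30 and -11.51. No sample overlapped, and the line difference of the gap was -1.26 (SE 0.34, adjusted p = 0.0113), the only one of the 5 arm pairs to pass, where 16.6% of the 151 arm pairs did. The adjusted p was 0.105 with quantile normalisation, 0.112 without replicate 2 and 0.0537 without replicate 4. At 0 h the gaps overlapped, at -10.65, -10.45 and -10.17 in the control line and at -10.58, -10.79 and -10.23 in the Ikaros line.

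The other 4 pairs did not pass at 24 h. The line difference of the gap was -0.63 for let-7g (adjusted p = 0.204), -0.51 for let-7i (0.476), 0.31 for let-7f-2 (0.638) and 0.08 for let-7d (0.874). At 0 h let-7d-3p minus let-7d-5p was -0.94, -1.49 and -1.22 in the control line and -1.94, -1.69 and -2.37 in the Ikaros line. These did not overlap, but the line difference of -0.78 did not pass (adjusted p = 0.347), nor did any other arm pair at 0 h (0.0% of 151, with 8 at an unadjusted p under 0.05). Beyond 0 h none of the 5 passed, where 8.61% of the arm pairs did. The neighbour of let-7f-2, miR-98, had a 3p arm lower by -0.79 at 24 h (adjusted p = 0.0948) and a 5p arm higher by 0.30 (0.0449), a line difference of the gap of -1.09 (0.0727).

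**Figure D4:**
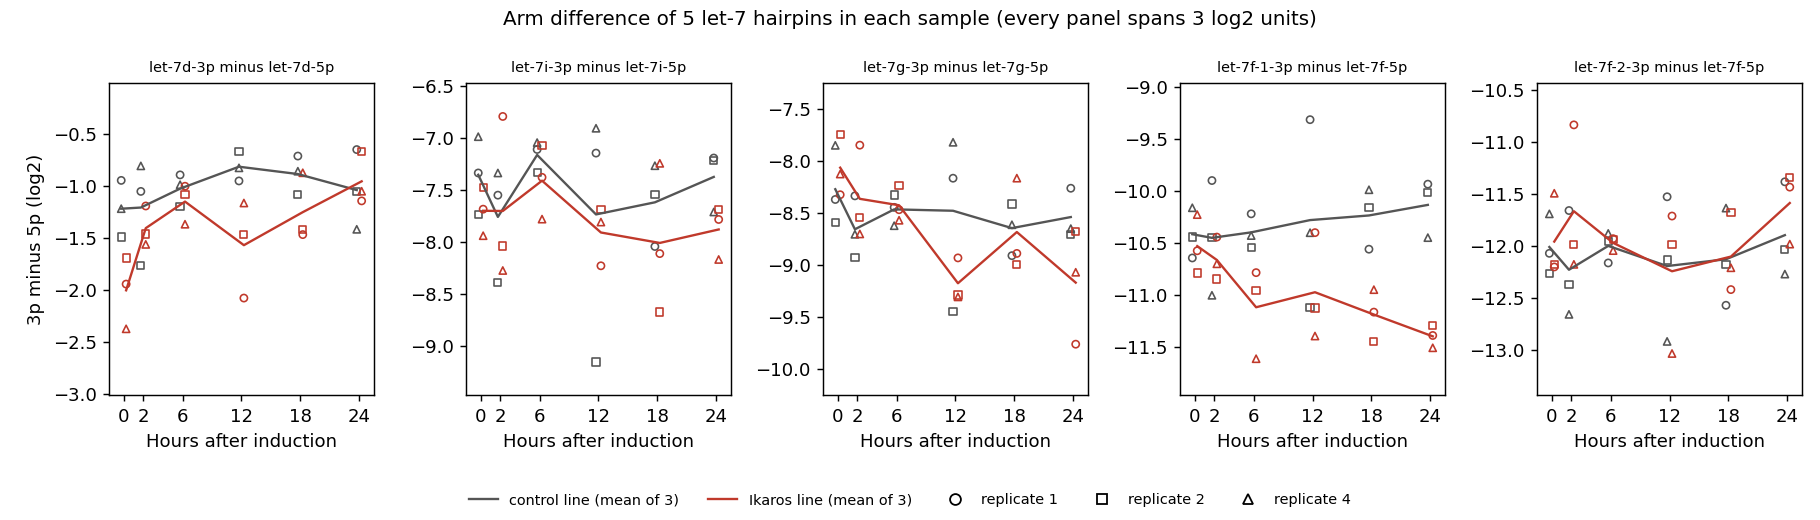
Log2 value of the 3p arm minus that of the 5p arm of 5 let-7 hairpins (y axis) against hours (x axis), with 1 symbol per sample by replicate number and lines through the means of 3 for the control line (grey) and the Ikaros line (red); every panel spans 3 log2 units. For let-7f-1 the Ikaros samples of 24 h lie between -11.51 and -11.30 and the control samples between -10.45 and -9.94, and for let-7d all samples lie between -2.37 and -0.65.

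Among the guides of the family, 7 of the 11 listed miRNAs were in the table. At 24 h 1 was lower past the test, let-7f-5p (-0.38, adjusted p = 0.0161), and 1 was higher, miR-98-5p, where 39.9% of all miRNAs passed. At 0 h and 2 h none passed, at 6 h let-7f-5p was lower, at 12 h let-7i-5p was lower, and at 18 h let-7f-5p was lower and let-7c-5p higher, where 8.53%, 11.3%, 15.1%, 21.7% and 29.9% of all miRNAs passed from 0 h to 18 h. The median line difference of the 7 guides at 24 h was 0.06, beside -0.68 for the 3p arms and -0.07 for all miRNAs. These 2 sets are not matched, since the 7 include let-7c-5p (0.64), let-7j (0.37) and miR-98-5p (0.30), whose partners are not among the 6 arms. For the guides of the same hairpins it was -0.43 (let-7d-5p), -0.38 (let-7f-5p), -0.28 (let-7g-5p) and 0.06 (let-7i-5p), and of these let-7f-5p alone passed. Of the miR-99, miR-100 and miR-125 miRNAs that accompany let-7 at other loci, 5 of 11 were in the table, and at 24 h miR-99b-5p and miR-100-5p were lower, where 22.0% of all miRNAs were.

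Over the 12 group means, let-7f-1-3p was most like miR-320-3p (Pearson r = 0.98), miR-139-3p (0.96) and miR-19b-2-5p (0.96). Its r with let-7f-5p, the guide that both let-7f hairpins share, was 0.93. let-7d-3p was most like miR-541-5p (0.89), and its r with let-7d-5p was 0.19. let-7b-3p was most like miR-1187 (0.93), let-7g-3p like miR-23b-5p (0.91), let-7i-3p like miR-18b-5p (0.87) and let-7f-2-3p like miR-467a-5p (0.75). Between the arms themselves r was 0.89 for let-7b-3p and let-7f-1-3p, which share a seed, 0.58 for the neighbours let-7d-3p and let-7f-1-3p and 0.47 for let-7f-1-3p and let-7f-2-3p. Over the 36 samples the r of the 6 best matches was lower, from 0.86 for let-7f-1-3p with miR-320-3p to 0.09 for let-7f-2-3p with miR-467a-5p, with 0.61 for let-7d-3p, 0.58 for let-7b-3p, 0.52 for let-7g-3p and 0.48 for let-7i-3p. These are descriptions over 12 points that share the groups and the authors' normalisation.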

How the data were processed

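Total RNA of the 36 samples was made into TruSeq small RNA libraries. In the authors' pipeline, Novoalign placed the reads on miRBase mouse sequences and multiBamCov counted them. NOISeq then filtered on CPM, cqn removed GC bias, TMM scaled the samples and ComBat adjusted for batch, after which the technical replicates were averaged. The deposited values are log2 values, and the sample medians lie between 3.70 and 4.15. The labels name mm10, Novoalign and bedtools.

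Groups, replicate numbers and culture batches were taken from the labels. All 36 samples entered one model with 12 group means in limma 3.58.1 (R 4.3.3), with a mean-variance trend for single miRNAs and without one for the 151 arm pairs (3p minus 5p) and the 109746 pairs of miRNAs. P-values are two-sided and were adjusted by Benjamini-Hochberg over all features of each comparison, and an adjusted p under 0.05 was counted as passing. The script was tested on simulated data. Same-numbered samples come from one culture batch per the labels, and their deviations from the group means correlated at 0.34, 0.27, 0.41, 0.25, 0.06 and 0.26 from 0 h to 24 h. Alternatives were median subtraction, quantile normalisation, fitting only the groups compared, culture batch as a replicate block, leaving out the lowest 25% of miRNAs, the other trend setting, and each replicate number left out. Leaving out 1 library of 12 h, in either line, was added after seeing the data. All miRNAs named besides the 3p arms come from lists of let-7 guides and cluster companions, from markers, or are the most alike over the group means. The arms and lists were chosen with earlier results of these data known. Sequences and positions are from RefSeq and the host transcripts from GENCODE vM21. Figures were drawn with matplotlib 3.10.9.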

Additional observations from a re-analysis of the deposited data

How the results depend on the processing

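The lower let-7f-1-3p of the Ikaros line at 24 h passed under every alternative run. Counts of arms past the test moved elsewhere. With the sample medians subtracted, 1 arm passed at 12 h, 1 at 18 h and 0 for 24 h against 2 h in Ikaros cells. With quantile normalisation, 0 passed for 24 h against 2 h in Ikaros cells and 0 arm pairs passed at 24 h. With only the groups compared fitted, 2 passed at 6 h, 0 at 12 h, 1 for 24 h against 2 h in Ikaros cells and 1 at 24 h beyond 0 h. With the other variance trend, 1 passed at 12 h. The replicate block added 1 at 24 h beyond 0 h (let-7f-1-3p) and the pair of let-7b-3p and let-7f-1-3p, and took away let-7g-3p at 24 h and for 24 h against 2 h in Ikaros cells, and changed no other call of the 6 arms. Without Ikaros 12 h replicate 4, 0 passed at 12 h, and without control 12 h replicate 2, 4 did. With each replicate number left out in turn, the counts ranged from 0 to 1 at 0 h, 0 to 1 at 6 h, 0 to 0 at 12 h, 0 to 1 at 18 h, 1 to 2 at 24 h, 1 to 2 against 0 h and 0 to 2 against 2 h in Ikaros cells, 0 to 1 for arm pairs and 1 to 3 for pairs of arms. The cause was not tested.

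Among the line differences of the 6 arms, at each time and beyond 0 h or 2 h, signs turned only where the test was not passed. With the medians subtracted these were let-7d-3p (0.21) and let-7i-3p (0.027) beyond 2 h, let-7g-3p at 0 h (0.021), let-7b-3p at 12 h (0.039) and 2 h (0.012) and let-7f-2-3p at 24 h (0.17). With quantile normalisation they were let-7i-3p beyond 2 h (0.079), let-7f-2-3p at 24 h (0.056) and let-7g-3p at 2 h (-0.0029). Without Ikaros 12 h replicate 4 they were let-7b-3p (0.059) and let-7f-2-3p (0.12) at 12 h, the latter negative with any replicate number left out (-0.44 to -0.30). With replicate numbers left out, the ranges were -0.22 to 0.44 for let-7i-3p beyond 0 h, -0.33 to 0.16 for let-7d-3p and -0.89 to 0.32 for let-7i-3p beyond 2 h, -0.36 to 0.20 for let-7g-3p at 0 h, -0.18 to 0.17 for let-7b-3p at 12 h, -0.61 to 0.10 and -0.18 to 0.0067 for let-7f-2-3p at 18 h and 24 h, and -0.047 to 0.072, -0.10 to 0.23 and -0.69 to 0.34 for let-7b-3p, let-7g-3p and let-7i-3p at 2 h. Changes within the Ikaros line that did not pass turned too. Those of 24 h against 2 h were 0.13 for let-7f-2-3p and 0.19 for let-7i-3p with the medians subtracted and 0.078 and 0.26 with quantile normalisation. That of let-7i-3p against 0 h was 0.10 and 0.065. The arm gap of let-7i beyond 0 h was 0.39 and the difference of let-7b-3p and let-7g-3p was -0.13 with quantile normalisation. With replicate numbers left out, signs also turned for let-7f-2-3p against 0 h, for let-7d-3p, let-7f-2-3p and let-7i-3p against 2 h, for the arm gaps of let-7i beyond 0 h and let-7d at 24 h and for the pair of let-7b-3p and let-7g-3p, none of them past the test. Without counts in the table, what depth limits could not be computed.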
